A study of Mus musculus with 12 samples.

Results

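The nuclear-encoded subunits of the mitochondrial respiratory chain were followed in mouse embryonic stem cells in which the translation termination factor eRF1 was targeted for degradation. Members were chosen by gene symbol alone, as the Nduf genes of complex I, Sdha to Sdhd of complex II, the Uqcr genes of complex III, the Cox4 to Cox8 genes of complex IV and the Atp5 genes of complex V, without pseudogenes. The footprint table held 87 of them among 22034 symbols, with 39 in complex I, 4 in complex II, 8 in complex III, 18 in complex IV and 18 in complex V. The RNA table held 90 by symbol among 49997, and 94 symbols were in either table after RefSeq synonyms were joined. Ribosome footprints were counted in 4 groups of 2 biological replicates, A and B: Gcn2 knockout cells with dTAG-13, untreated Gcn2 knockout cells, wild-type cells with dTAG-13 and untreated wild-type cells. Poly(A) RNA was counted in wild-type cells with dTAG-13 and in untreated wild-type cells, also with 2 replicates each. All cells were of the line ES-E14TG2a and carried eRF1-dTAG, a release factor fused to a degron that the compound dTAG-13 (500 nM, 1 h) marks for destruction, so that "wild type" refers to Gcn2 only. Gcn2, encoded by Eif2ak4, is a kinase that slows translation initiation in response to amino acid shortage or stalled ribosomes. Whether each genotype is 1 clone is not given in the labels, and treated cells without the tag and vehicle-treated cells were not analysed here.

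The respiratory chain passes electrons from NADH through complex I, or from succinate through complex II, to ubiquinone, then through complex III and cytochrome c to complex IV, which reduces oxygen. Complexes I, III and IV pump protons across the inner mitochondrial membrane, and complex V, the ATP synthase, uses the gradient to make ATP. The complexes other than II combine subunits made in the cytosol with a few that are encoded in mitochondrial DNA. The transcription factors NRF1 and GABP, a member of the ETS family, are known activators of many of the nuclear genes.

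Library totals ranged from 7874804 to 19691716 footprints and from 17462458 to 24256097 RNA reads. Replicates of every group differed by more than counting error, with a chi-squared statistic per degree of freedom of 2.76 to 23.7. Eif2ak4 had 2.33 to 5.36 CPM of footprints (counts scaled to a common library total) in the knockout libraries and 27.7 to 33.97 CPM in the wild-type libraries. Footprints on Etf1, the gene of eRF1, did not pass the test in either genotype (log2 change 0.26 in knockout and 0.15 in wild-type cells, adjusted p = 0.201 and 0.552), and the protein was not measured here. The 9 naive stem cell markers summed to between 9374 and 10230 CPM in the footprint libraries, against 4.36 to 9.29 CPM for 7 fibroblast markers and 5.42 to 10.6 CPM for 5 primitive endoderm markers. Among all marker lists, Gata4 of the primitive endoderm list was called, lower in treated knockout cells (log2 change -1.17, adjusted p = 0.0472), and its list summed to 5.42 to 6.80 CPM in treated and 7.99 to 9.85 CPM in untreated knockout cells. The part of such cells in the results was not tested. CPM are shares of a library, so a lower value cannot be told apart as fewer cells making a transcript, less of it per cell or more of everything else. Of the 87 members in the footprint table, 84 had enough counts to be tested. The other 3, Cox6a2, Cox8b and Cox8c, are isoforms of muscle, fat or testis and had at most 0.344 CPM in any footprint library.

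In Gcn2 knockout cells with dTAG-13, 10 subunits of complexes I, IV and V had more footprints than in untreated knockout cells, and 4 subunits, 2 of them in complex II, had fewer. Of the 84 members tested, 10 rose and 4 fell at an adjusted p under 0.05, which is 11.9% and 4.76% of them. Among all 12267 genes tested, 3.16% rose and 5.71% fell. The risers were Atp5mc2, Cox7a2l, Atp5mg, Ndufb2, Atp5me, Atp5mf, Ndufa4, Ndufb6, Ndufa3 and Ndufb1, and the members that fell were Ndufa4l2, Sdhd, Ndufs8 and Sdha. Both treated libraries lay above both untreated libraries for 44 members (52.4%, against 32.5% of all genes) and below them for 23 (27.4%, against 27.0% of all genes). In wild-type cells a single member, Cox7b, rose (1.19% of members, against 2.94% of all genes) and none fell, against 1.94% of all genes. The test used for this, edgeR's quasi-likelihood test, gave 17 members an unadjusted p under 0.05 there (20.2%, against 19.0% of all genes), and DESeq2 called 2 members among 806 genes in all. In wild-type cells the treated libraries lay above the untreated ones for 19 members (22.6%, against 22.3% of all genes) and below them for 18 (21.4%, against 22.8%).

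The plot of changes by complex shows how the members of each complex were spread. The median log2 change in the knockout was 0.01 for complex I, -0.22 for complex II, 0.31 for complex III, 0.32 for complex IV and 0.21 for complex V, against 0.10 over all members and 0.04 over all genes tested. In wild-type cells it was -0.10, -0.07, 0.11, -0.01 and 0.07 for complexes I to V, against -0.01 over all members and -0.01 over all genes. These medians weigh each gene alike. The summed CPM of complex V was 10375 ± 331 in treated and 10186 ± 224 in untreated knockout cells (SD, n = 2 each). For complex IV the sums were 4906 ± 158 in treated and 4121 ± 65.6 in untreated knockout cells (SD, n = 2 each).

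**Figure D1:**
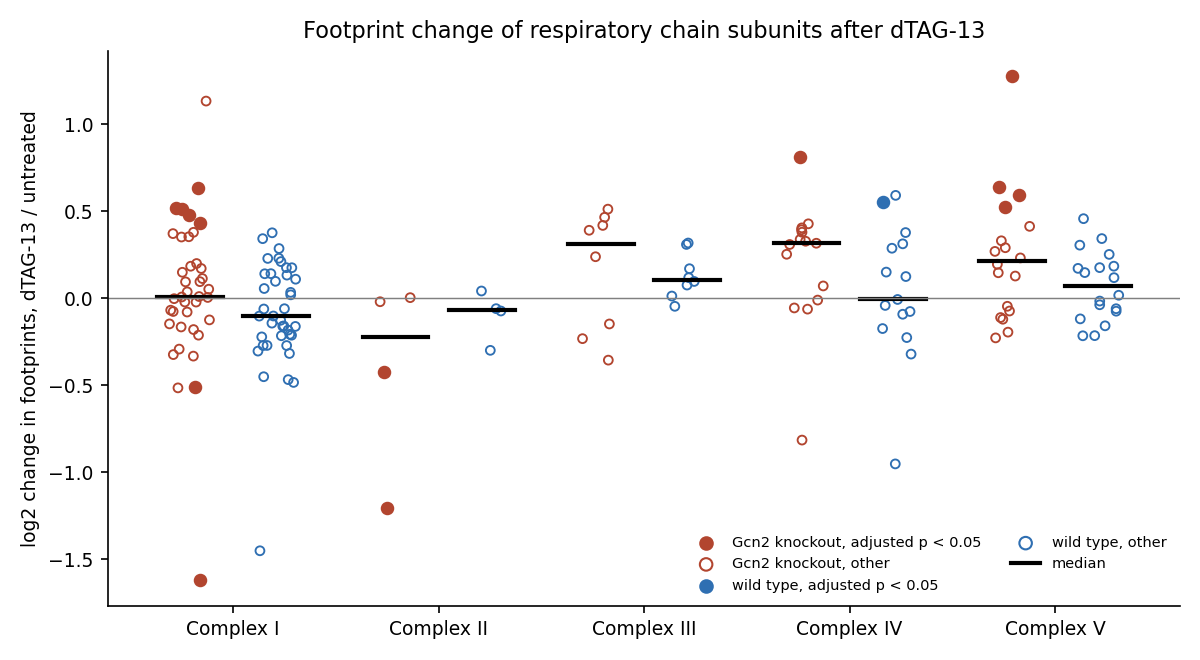
The log2 change in footprints between dTAG-13 treated and untreated cells (vertical axis) is plotted for the 84 tested members by complex, in Gcn2 knockout (left of each pair) and wild-type cells (right). Filled points passed an adjusted p of 0.05, 14 in the knockout and 1 in wild type, and black bars are medians, highest for complexes III and IV in the knockout at 0.31 and 0.32.

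Complex II, succinate dehydrogenase, has no mitochondrially encoded part. Its subunits are the flavoprotein Sdha, the iron-sulfur protein Sdhb and the membrane anchors Sdhc and Sdhd. Sdhd (chr9:50596340-50603849, GRCm38) had 108 and 96.2 CPM of footprints in treated knockout cells, against 224 and 248 CPM in untreated knockout cells. In treated wild-type cells it had 178 and 144 CPM, against 203 and 194 CPM in untreated wild-type cells. Both pairs of groups were apart, and both treated knockout libraries were below all the other footprint libraries. The gene fell 2.31-fold in the knockout (log2 change -1.21, SE 0.13, adjusted p = 0.000265). In wild-type cells the log2 change was -0.30 (SE 0.13) and did not pass the test (adjusted p = 0.223). The difference between the changes, -0.91 (SE 0.18), missed the threshold over all genes (adjusted p = 0.114) in edgeR and passed it in DESeq2, as given with the comparison of genotypes. In wild-type cells Sdhd RNA was at 134 and 133 CPM with dTAG-13 and 138 and 129 CPM without it.

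Sdha (chr13:74322255-74350240) also fell in the knockout. It had 233 and 216 CPM of footprints in treated knockout cells, against 309 and 293 CPM in untreated ones, so that the groups were apart (log2 change -0.42, SE 0.11, adjusted p = 0.0261). In wild-type cells Sdha had 267 and 277 CPM with treatment, against 263 and 265 CPM without it, a log2 change of 0.04 (adjusted p = 0.881). The other two subunits did not pass the test in either genotype. Sdhb had 194 and 179 CPM in treated knockout cells, against 188 and 184 CPM in untreated ones. Sdhc averaged 203 ± 3.40 CPM in treated knockout cells, against 206 ± 8.53 CPM in untreated ones (SD, n = 2 each). The libraries of these 2 genes overlapped, and their log2 changes in the knockout were 0.00 and -0.02. Summed over the complex, footprints came to 717 ± 34.1 CPM in treated and 929 ± 11.2 CPM in untreated knockout cells (SD, n = 2 each). The sums in wild-type cells were 782 ± 36.6 CPM with treatment and 828 ± 42.3 CPM without it (SD, n = 2 each).

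**Figure D2:**
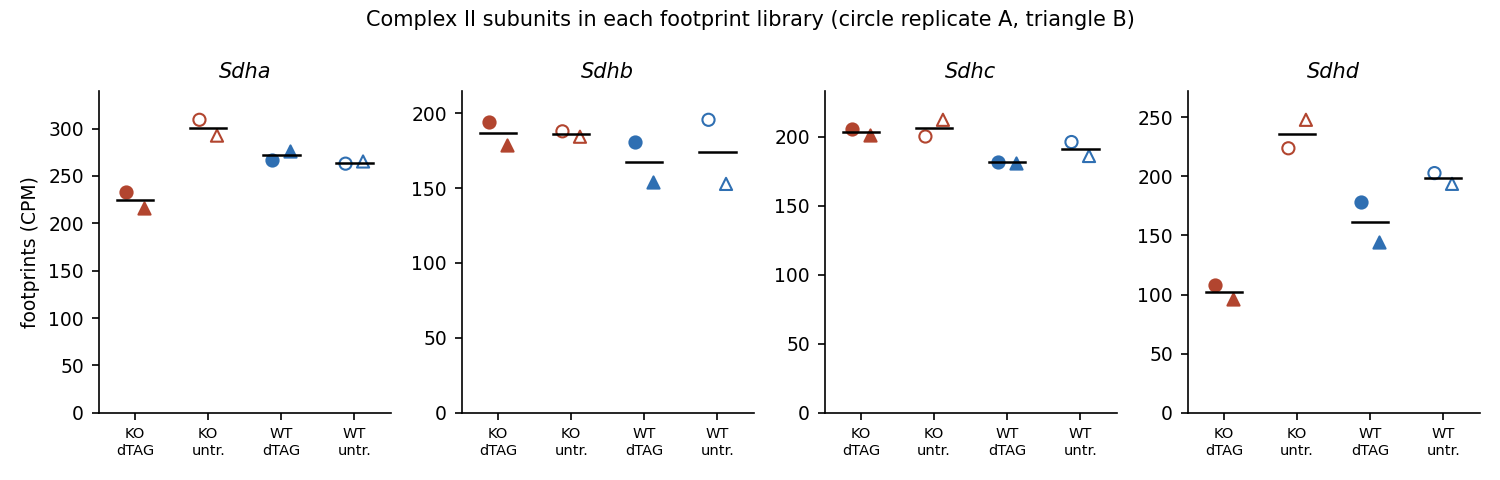
Footprints in CPM (vertical axis, from 0) are shown for Sdha, Sdhb, Sdhc and Sdhd in each library, with knockout treated, knockout untreated, wild-type treated and wild-type untreated cells from left to right; black lines are means of 2 replicates. Sdhd is lowest in treated knockout cells at 108 and 96.2 CPM, while Sdhb and Sdhc overlap between the treated and untreated knockout libraries.

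In complex V, 4 of the 18 members tested rose in the knockout (22.2%, against 3.16% of all genes) and none fell (against 5.71%). They were the proteolipid gene Atp5mc2 and the supernumerary subunits Atp5mg, Atp5me and Atp5mf, known as g, e and f, which sit in the membrane part and take part in pairing ATP synthases into dimers. Atp5mg (chr9:44913248-44920742) had 360.5 and 350.4 CPM of footprints in treated knockout cells, against 209 and 248 CPM in untreated ones. The groups were apart (log2 change 0.64, SE 0.12, adjusted p = 0.00538). Atp5me had 301 and 281 CPM in treated knockout cells, against 174 and 212 CPM in untreated ones (log2 change 0.59, adjusted p = 0.0125). Atp5mf had 568 and 604 CPM in treated knockout cells, against 387 and 427 CPM in untreated ones (log2 change 0.53, adjusted p = 0.0165). All 3 also had higher treated than untreated libraries in wild-type cells, with log2 changes of 0.34, 0.18 and 0.31 that did not pass the test (adjusted p = 0.125, 0.482 and 0.182).

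Atp5mc1, Atp5mc2 and Atp5mc3 are separate genes for the same mature c subunit, which forms the rotating ring of the enzyme. Atp5mc2 (chr15:102662868-102671047) had 74.99 and 67.47 CPM in treated knockout cells, against 25.01 and 33.75 CPM in untreated ones, a rise of 2.42-fold (log2 change 1.28, SE 0.29, adjusted p = 0.0254). Its wild-type libraries overlapped, at 60.9 and 35.0 CPM with treatment and 42.9 and 26.0 CPM without it. The log2 changes of Atp5mc1 and Atp5mc3 in the knockout were 0.15 and -0.20, and neither passed the test (adjusted p = 0.466 and 0.434). The catalytic head F1 had no called member among 5 and a median log2 change of -0.05 in the knockout, against 0.29 for the other 13 members of the complex. In wild-type cells the medians were likewise apart, at -0.16 for the head and 0.15 for the others. The median difference between the genotypes' changes was 0.14 for the head and 0.15 for the others. In the head, Atp5f1a had 1245 and 1206 CPM in treated and 1054 and 1189 CPM in untreated knockout cells. Atp5f1b, which carries the catalytic sites, had 3318 and 3162 CPM in treated and 3793 and 3793 CPM in untreated knockout cells, the lowest change of the complex (log2 -0.23, adjusted p = 0.277). Atp5if1, the inhibitor that blocks ATP hydrolysis, had 342 and 326 CPM in treated and 282 and 272 CPM in untreated knockout cells (log2 change 0.27, adjusted p = 0.274).

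Promoter windows from RefSeq (GRCm38.p6, 250 bases before to 50 after the annotated start) were found for 71 members. The NRF1 motif GCATGCGC, on either strand, was in the windows of 10 of them (14.1%), against 3.05% of all genes. The ETS motif CCGGAAG, on either strand, was in 17 (23.9%), against 9.93% of all genes. Of the 10 members with the NRF1 motif, 3 were Atp5 genes that rose in the knockout. Their matches are shown with the surrounding bases because 3 of the 4 called Atp5 genes hold the motif, with motif letters in capitals. In Atp5me and Atp5mc2 a match on each strand overlaps the other, and in Atp5mg an NRF1 match is followed by an ETS match. The window of Atp5me also holds an ETS match, outside the stretch shown. The stretches lie on the minus strand at chr5:108434430-108434459, chr15:102671070-102671099 and chr9:44920938-44920992.
Atp5me: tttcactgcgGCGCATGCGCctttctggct
Atp5mc2: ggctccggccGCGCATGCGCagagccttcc
Atp5mg: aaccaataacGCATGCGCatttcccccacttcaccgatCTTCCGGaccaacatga
The other members with the NRF1 motif were Ndufa6, Ndufa8, Ndufa11, Sdhb, Uqcrc1, Uqcr11 and Cox6a1, none of which passed the test in either genotype. The remaining called members with a window did not hold it. These were Atp5mf, Cox7a2l, Cox7b, Ndufa3, Ndufa4, Ndufb1, Ndufb2, Ndufb6, Ndufs8, Sdha and Sdhd. A match is a description of these letters only. Nrf1 itself had 28.6 and 32.1 CPM of footprints in treated knockout cells, against 61.3 and 65.2 CPM in untreated ones (log2 change -1.06, adjusted p = 0.000426). It also fell in wild-type cells, with 38.6 and 36.3 CPM against 64.3 and 59.9 CPM (log2 change -0.73, adjusted p = 0.00653).

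Complex IV, cytochrome c oxidase, had 15 tested members by symbol, without Ndufa4, of which Cox7a2l rose in the knockout and Cox7b in wild-type cells. In each genotype this was 6.67% of them, against 3.16% of all genes in the knockout and 2.94% in wild-type cells. None fell, against 5.71% and 1.94% of all genes. Cox7a2l, a relative of the Cox7a subunits that links complexes III and IV in supercomplexes, lies at chr17:83501917-83514333. It had 168 and 160.0 CPM in treated knockout cells, against 91.0 and 95.4 CPM in untreated ones (log2 change 0.81, SE 0.18, adjusted p = 0.0165). The knockout groups were apart, whereas the wild-type libraries overlapped at 136 and 84.6 CPM with treatment and 108 and 90.4 CPM without it. Cox7b (chrX:106015700-106022450), a small subunit of the membrane part, had 440 and 349 CPM in treated wild-type cells, against 265 and 272 CPM in untreated ones (log2 change 0.55, SE 0.13, adjusted p = 0.0270). In the knockout it had 367 and 350.3 CPM with treatment, against 302 and 266 CPM without it. The knockout groups did not overlap either, and the log2 change there of 0.34 did not pass the test (adjusted p = 0.123). The call of Cox7b was kept in 3 of 8 fits that left out a library and had an adjusted p of up to 0.174 in the others. It was lost without either treated knockout library, without treated wild-type replicate A, and without either untreated wild-type library.

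The subunits Cox4i1, Cox5a and Cox7c of complex IV did not pass the test in either genotype. Cox4i1, which binds adenine nucleotides and regulates the enzyme, had 844 and 818 CPM in treated and 813 and 861 CPM in untreated knockout cells, and these libraries overlapped. Cox5a had 1048 and 1011 CPM in treated and 853 and 875 CPM in untreated knockout cells, a log2 change of 0.25 that did not pass the test (adjusted p = 0.191). Cox7c had 399 and 336 CPM in treated and 302 and 290.3 CPM in untreated knockout cells (log2 change 0.31, adjusted p = 0.143). In wild-type cells the extremes of the complex were isoforms of other tissues at very low levels. Cox4i2, an isoform of lung and of low oxygen, had 1.06 and 0.715 CPM in treated and 2.15 and 1.12 CPM in untreated wild-type cells (log2 change -0.95). Cox7b2, an isoform known from testis, had 3.45 and 3.72 CPM in treated and 2.70 and 2.06 CPM in untreated wild-type cells (log2 change 0.59). Neither passed the test in either genotype.

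**Figure D3:**
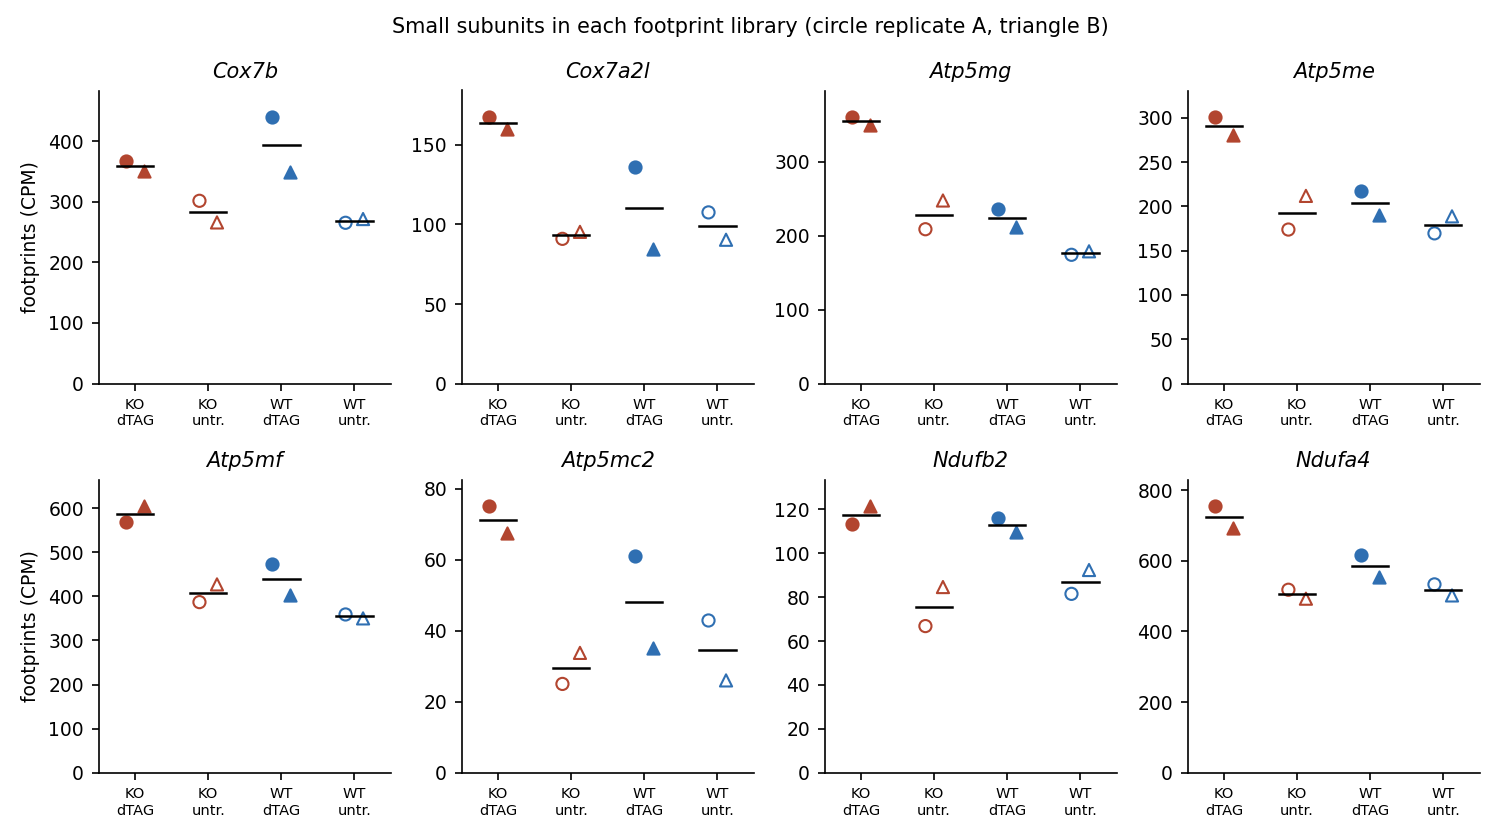
Footprints in CPM (vertical axis, from 0) are shown for 8 small subunits in each library, with knockout treated, knockout untreated, wild-type treated and wild-type untreated cells from left to right; black lines are means of 2 replicates. In the knockout the treated libraries lie above the untreated ones in all 8 panels, and in wild-type cells the libraries overlap for Cox7a2l and Atp5mc2.

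Complex I, taken by symbol, had 39 tested members. Its 7 nuclear-encoded core subunits carry the flavin, the iron-sulfur clusters and the ubiquinone site. The 32 others were counted as supernumerary, with Ndufa4 and its paralogue Ndufa4l2 among them. Of the core subunits, Ndufs8, which holds iron-sulfur clusters near the ubiquinone site, fell in the knockout with 99.7 and 101 CPM in treated cells, against 135 and 150.2 CPM in untreated ones (log2 change -0.51, SE 0.12, adjusted p = 0.0178). In wild-type cells it had 110 and 105 CPM with treatment and 142 and 123 CPM without it, so that the groups were apart there as well (log2 change -0.30, adjusted p = 0.177). No other core subunit passed the test in either genotype. Ndufs1, the largest core subunit, had log2 changes of -0.07 in knockout and 0.34 in wild-type cells (adjusted p = 0.755 and 0.0907). The NADH-binding subunit Ndufv1 had log2 changes of 0.01 and 0.14 in the same order (adjusted p = 0.978 and 0.572). Of the 7 core subunits, 5 had a negative change in the knockout and 5 in wild-type cells. The share with a positive change was 28.6% in each genotype. Among all genes it was 54.5% in the knockout and 48.8% in wild-type cells.

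Of the 32 Nduf members outside the core, 5 rose in the knockout and 1 fell (15.6% and 3.13%, against 3.16% and 5.71% of all genes). Ndufb2, of the membrane arm, had 113 and 121 CPM in treated knockout cells, against 66.9 and 84.6 CPM in untreated ones (log2 change 0.63, SE 0.13, adjusted p = 0.0113). Ndufa4, named for complex I but found in complex IV, had 754 and 692 CPM in treated knockout cells, against 518 and 493 CPM in untreated ones (log2 change 0.52, adjusted p = 0.0152). Ndufb6, Ndufa3 and Ndufb1, also of the membrane arm, had log2 changes of 0.52, 0.48 and 0.43 with adjusted p of 0.0422, 0.0329 and 0.0421. For all 5 the treated and untreated knockout libraries were apart. The one that fell was Ndufa4l2, a paralogue of Ndufa4 induced by low oxygen, which rested on few footprints: 0.860 and 0.962 CPM in treated knockout cells, against 2.29 and 3.38 CPM in untreated ones (log2 change -1.62, SE 0.39, adjusted p = 0.0209). In wild-type cells it had 1.06 and 0.715 CPM with treatment, against 2.90 and 1.73 CPM without it (log2 change -1.45, adjusted p = 0.0694). The largest positive change of the complex in the knockout, that of Ndufb8, rested on 2.32 and 2.34 CPM in treated and 0.895 and 1.22 CPM in untreated cells and did not pass the test (log2 1.13, adjusted p = 0.0522). In wild-type cells the largest positive change of complex I was that of Ndufb2 (log2 0.38, adjusted p = 0.135).

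Some mRNAs with very short leaders start translation at an AUG inside the element AAGATGGCG, a known feature of several respiratory chain genes. On the plus strand after the annotated start, it was found in the RefSeq windows of 6 members (8.45% of 71), against 0.762% of all genes, and 5 of the 6 are in complex I. They are shown because 6 of the members hold these letters, which are in capitals; where translation starts on these mRNAs was not examined. In GRCm38.p6 they lie at chr6:126849097-126849125, chr3:51408915-51408943, chr13:114388045-114388069, chr13:73328433-73328459 and chr5:145191500-145191528 on the minus strand, in the order Ndufa9, Ndufc1, Ndufs4, Ndufs6 and Atp5mf. The one of Ndufs7 lies at chr10:80249463-80249491 on the plus strand.
Ndufa9: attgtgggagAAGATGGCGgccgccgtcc
Ndufc1: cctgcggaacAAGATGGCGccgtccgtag
Ndufs4: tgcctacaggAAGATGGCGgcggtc
Ndufs6: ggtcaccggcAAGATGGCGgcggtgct
Ndufs7: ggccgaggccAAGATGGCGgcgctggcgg
Atp5mf: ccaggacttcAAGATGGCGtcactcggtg
Their log2 changes in the knockout had no common direction: -0.18 for Ndufa9, 0.35 for Ndufc1, -0.08 for Ndufs4, 0.00 for Ndufs6, -0.51 for Ndufs7 and 0.53 for Atp5mf. Among these 6, the change of Atp5mf passed the test.

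Complex III had 8 tested members, and none passed the test in either genotype, with 6 at an unadjusted p under 0.05 in the knockout and none in wild-type cells. DESeq2 called none of them. In the knockout, Uqcrh, Uqcrq and Uqcrc2 were called without the filter on low counts and with the knockout libraries fitted alone. In the knockout all 8 had treated libraries apart from the untreated ones, 5 above and 3 below. Among all genes 32.5% lay above and 27.0% below. The 5 above were the Rieske iron-sulfur protein Uqcrfs1 and the small subunits Uqcrh, Uqcrq, Uqcr10 and Uqcr11, with log2 changes of 0.24, 0.47, 0.51, 0.39 and 0.42. The 3 below were the large core proteins Uqcrc1 and Uqcrc2 and the ubiquinone-site subunit Uqcrb, with log2 changes of -0.23, -0.36 and -0.15. Uqcrh, the acidic hinge protein that contacts cytochrome c1, had 188 and 170.4 CPM in treated knockout cells, against 132 and 128 CPM in untreated ones. Uqcrc2 had 203 and 184 CPM in treated and 266 and 230.0 CPM in untreated knockout cells. In wild-type cells the treated libraries lay above the untreated ones for 2 members and overlapped for 6. Among all genes 22.3% lay above and 22.8% below there. The wild-type log2 changes of the 8 members were between -0.05 for Uqcrc1 and 0.32 for Uqcr11.

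The calls in the knockout differed in how far they rested on single libraries. Of the 14, Sdhd alone was called in every fit that left out 1 of the 8 footprint libraries, with log2 changes of -1.33 to -1.13 and adjusted p of 8.39e-05 to 0.0108. Without treated knockout replicate A, or without replicate B, 1 member was called. Without untreated knockout replicate A, 3 were called (Sdhd, Ndufs8 and Ndufa4l2), and without replicate B 5 were called (Sdhd, Atp5mg, Atp5me, Atp5mf and Ndufb2). Without a wild-type library 14 to 17 were called. Over all genes the calls ranged from 215 to 1353 in these fits, against 1089 with all libraries. No called change turned its direction in these fits, and the highest adjusted p among the other 13 members ranged from 0.0976 for Atp5mg to 0.360 for Ndufb1. Each fit without a knockout library leaves 1 library in that group, which is then assumed to vary like the rest.

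**Figure D4:**
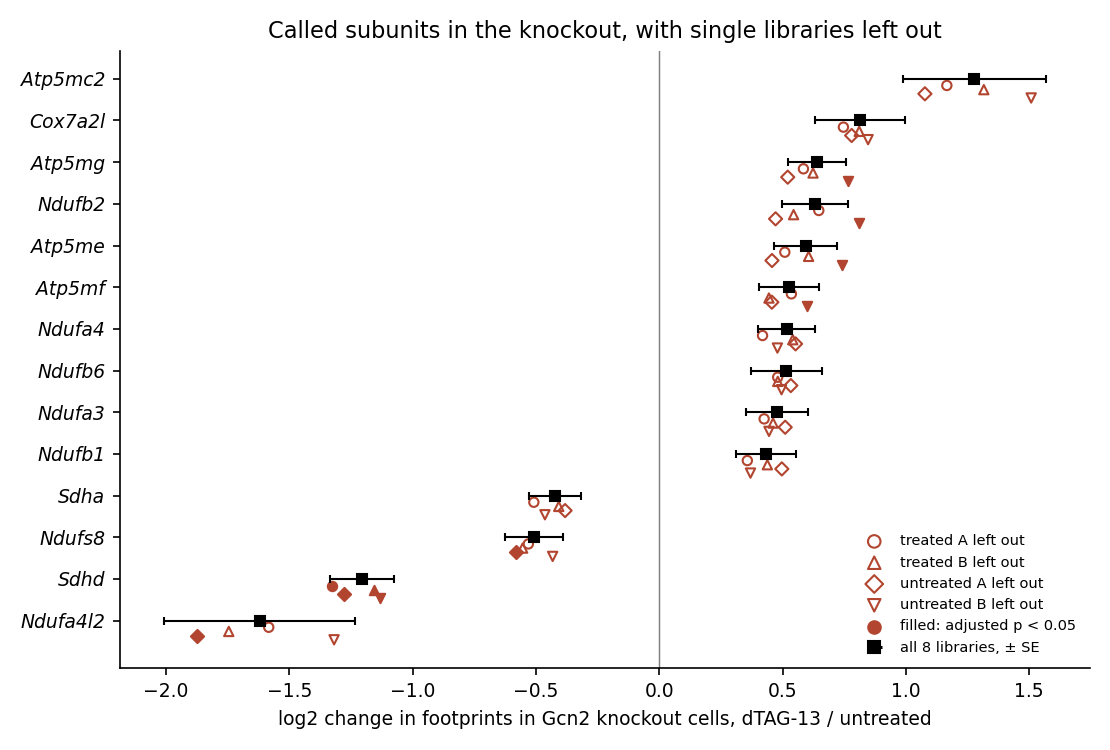
The log2 change in footprints in Gcn2 knockout cells (horizontal axis) is plotted for the 14 called members, with squares and bars for the fit of all 8 libraries ± SE and red symbols for fits without 1 knockout library, filled where the adjusted p was under 0.05. All 4 symbols of Sdhd, between -1.33 and -1.13, are filled, and the other members have at most 1 filled symbol each.

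When the difference between the treatment changes of the genotypes was tested, none of the 84 members was called in edgeR (0.0489% of all genes were called). At an unadjusted p under 0.05 there were 9 members (10.71%, against 10.02% of all genes). DESeq2 called 1 member, Sdhd, and 116 genes in all. The largest positive difference, of knockout minus wild-type change, was that of Ndufb9, a supernumerary subunit of complex I (log2 0.86, SE 0.24, adjusted p = 0.248). Ndufb9 had 126 and 122 CPM in treated knockout cells, against 97.8 and 92.7 CPM in untreated ones, and 75.9 and 55.3 CPM in treated wild-type cells, against 106 and 76.7 CPM in untreated ones. The difference was positive for 60 of the 84 members (71.4%, against 50.6% of all genes), with a median of 0.14 against 0.01 over all genes. The median of the members was 0.05 without treated knockout replicate A, 0.0069 without treated wild-type replicate B and 0.08 without untreated wild-type replicate A, and 0.12 to 0.20 without any 1 of the others. In untreated cells no member was called between knockout and wild type in edgeR (0.00815% of all genes were called) or in DESeq2, and 2 members had an unadjusted p under 0.05 (2.38%, against 5.98% of all genes). The log2 difference there was positive for 62 of the 84 members (73.8%, against 48.9% of all genes), with a median of 0.09 against -0.01 over all genes. That median was 0.18 without untreated wild-type replicate A and 0.013 without untreated wild-type replicate B. The untreated knockout libraries enter both this comparison and the change in the knockout, so these values are not independent of each other. Ribosomal proteins of the cytosol are another class of subunits needed in every cell. Of 81 tested, 33 were called higher in the knockout (40.7%, against 3.16% of all genes), with a median log2 change of 0.50. Their median difference between the changes was 0.55, with 78 of 81 positive and 0 called. In untreated cells their median was -0.22, knockout against wild type. Of 78 mitochondrial ribosomal proteins, 1 was called higher in the knockout (1.28%) and 6 lower (7.69%, against 5.71% of all genes). Their median there was 0.01.

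The poly(A) RNA of the members stayed below the test's threshold in wild-type cells. None of the 87 members tested was called in edgeR (0.163% of all genes were called) or in DESeq2, and 1, the Cox6c relative Cox6c2, had an unadjusted p under 0.05. The median log2 change was -0.02, with 75 of the 87 changes within 0.15 of zero. RNA summed to 9370 ± 65.3 CPM in treated and 9445 ± 359 CPM in untreated cells over all members (SD, n = 2 each). Cox7b RNA was at 76.0 and 74.2 CPM in treated and 75.2 and 72.2 CPM in untreated cells, while its footprints rose. Translational efficiency, the footprint change relative to the RNA change, was called for none of 81 members in edgeR, against 1.47% of all genes. DESeq2 called none, and 6 members had an unadjusted p under 0.05 (7.41%, against 14.3% of all genes). For Cox7b the log2 change in efficiency was 0.53 (adjusted p = 0.126). For Ndufa4l2 it was -2.58 (adjusted p = 0.100), with RNA at 0.628 and 0.518 CPM in treated and 0.247 and 0.273 CPM in untreated cells. RNA was not analysed here for the knockout, so the knockout changes have no RNA value beside them.

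**Figure D5:**
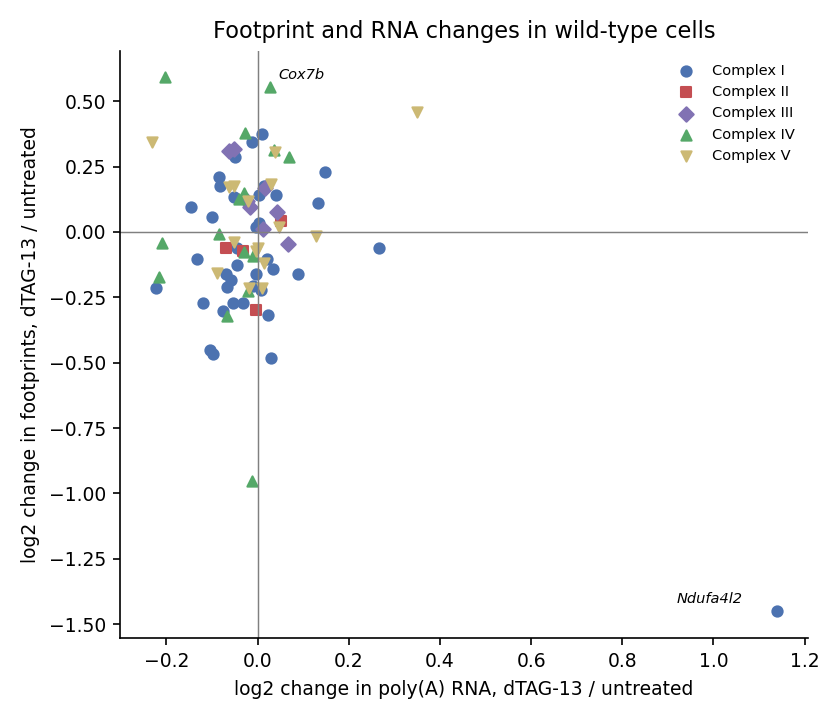
The log2 change in footprints (vertical axis) is plotted against the log2 change in poly(A) RNA (horizontal axis), both treated over untreated wild-type cells, for members tested in both assays, with colours and symbols for the complexes. Most points lie near zero on the RNA axis, Cox7b is high on the footprint axis at 0.55, and Ndufa4l2, at RNA levels under 1 CPM, stands apart at 1.14 and -1.45.

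Genes that build, feed or regulate the chain were counted from lists. Of 58 assembly factors tested, none was called higher and 4 were called lower in the knockout, a share of 6.90% against 5.71% of all genes. They were Atpaf2, a chaperone of the F1 head (log2 change -1.03), Dmac2, a complex I factor (-0.87), Cox10, which makes the haem A precursor (-0.74), and Oxa1l, which inserts proteins into the inner membrane (-0.60). In wild-type cells 1 of 58 was called, Cox10 (log2 change -0.66, adjusted p = 0.0418), a share of 1.72% called lower against 1.94% of all genes. Oxa1l had 104 and 111 CPM of footprints in treated knockout cells, against 154 and 171 CPM in untreated ones. Of 19 genes of the TCA cycle and pyruvate dehydrogenase, 2 were called lower in the knockout (10.5%, against 5.71% of all genes). These were Dlst and Suclg2, which encode subunits of the enzymes that act on 2-oxoglutarate and succinyl-CoA. Of 14 regulators tested, Nrf1 was called lower and Larp4, an RNA-binding protein, higher in each genotype, each a share of 7.14%. Over all genes 5.71% were called lower and 3.16% higher in the knockout, and 1.94% and 2.94% in wild-type cells. Larp4 had log2 changes of 0.56 in the knockout and 1.16 in wild-type cells (adjusted p = 0.0180 and 0.000917). None of 9 tested subunits and carriers outside the symbol rule, among them Ndufab1, Cyc1 and the ADP/ATP carriers, was called in either genotype. In edgeR, 3 had an unadjusted p under 0.05 in the knockout (33.3%, against 24.5% of all genes) and 1 in wild type (11.1%, against 19.0%). The 13 subunits encoded in mitochondrial DNA are listed at 0 in all 8 footprint libraries, so cytosolic and mitochondrial synthesis could not be set side by side.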

How the data were processed

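The authors deposited whole-number counts per gene symbol, 1 table for 8 footprint libraries and 1 for 4 poly(A) RNA libraries. Tools named by the submitters' processing notes are HISAT2 2.1.0, CASAVA 1.4 and cutadapt, and the build is mm10. The counting tool, its annotation and the handling of reads that fit several genes are not given in the labels or notes, so values of members with pseudogenes or paralogues are uncertain. For treated knockout cells both replicates' descriptions name 1 column, and replicate B was assigned by its title.

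From these counts, edgeR 4.0.16 in R 4.3.3 was run with filterByExpr (minimum count 10), TMM scaling and a robust quasi-likelihood fit. A single fit by group held the 8 footprint libraries, leaving 4 residual degrees of freedom, and the RNA libraries alone, leaving 2. The wild-type libraries of both assays gave translational efficiency as an assay-by-treatment interaction. Genes were called at a two-sided Benjamini-Hochberg adjusted p under 0.05 over all genes tested. CPM are TMM-scaled shares of a library on a common scale, and SEs were derived from each change and its F statistic. With 2 replicates a group, p-values rest on a spread shared by all groups of a fit. RNA symbols were joined by RefSeq synonyms for 15 members, and Atp5mj, Atp5mk and Ndufb11b were not joined. The fits were tested on simulated data.

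The members and gene lists were chosen with earlier results of these data known. Named genes are the called members, a list of subunits with known roles and the extremes of each complex; Nrf1, Larp4 and the other genes outside the complexes were named because they were called within a list. Alternatives were DESeq2 1.42.0, its size factors in edgeR, no filter, single libraries left out, each genotype alone and the replicate letter as a block. The labels name no batch shared by a letter, and letters were not treated as pairs. Coding lengths were not available here, so levels were not compared between genes and the planned length steps were not run. Some genes covered by the lists are not reported here.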

Additional observations from a re-analysis of the deposited data

How the results depend on the processing

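Counts of called members moved with the processing, and no called change turned round under any alternative. In wild-type cells, against 1 called member, there were 5 without the filter, 2 with DESeq2, 3 with the replicate block, 17 with the block within each genotype, 0 with wild-type libraries alone, and 0 to 4 with single libraries left out. Over all genes these counts were 599, then 1048, 806, 931, 2109, 19 and 197 to 659 in the same order. In the knockout, against 14, there were 39 with the block within genotype, 28 with knockout libraries alone and 1 to 17 with single libraries left out, against 1089, 3149, 1893 and 215 to 1353 over all genes. For the difference between genotypes, against 0, there were 3 without the filter, 1 with DESeq2, 1 with the replicate block, 8 with the block within genotype and 0 to 1 with single libraries left out, against 6, 192, 116, 39, 733 and 0 to 32 over all genes. For translational efficiency, against 0, there were 10 with the replicate block and 0 to 2 with single libraries left out, against 190, 1562 and 0 to 671 over all genes. The block within genotype was added after seeing the data. It called 17.2% of all genes in wild type, 25.7% in knockout and 5.98% for the difference, beside 17, 39 and 8 of 84 members. The replicate block called 12.1% of genes for translational efficiency, beside 10 of 81 members. Wild-type calls were 6.36% of all genes without the filter, 6.57% with DESeq2, 7.59% with the replicate block and 0.159% alone. For the difference these were 1.16%, 0.946% and 0.318% in the same order, without a fit alone. Same-letter libraries had correlated deviations from their group means (0.565 in wild-type and 0.121 in knockout footprints, 0.0196 in RNA), but 2 letters a group do not establish pairs, and the cause of the moves was not tested. Taken as the ratio of summed CPM, the knockout changes were 0.089 for complex I, -0.37 for complex II, 0.13 for complex III and 0.027 for complex V, and the wild-type change of complex V was 0.015, against 0.052 as a median without the filter. With single libraries left out, knockout medians ranged from -0.025 to 0.095 for complex I, from 0.21 to 0.36 for complex III, from 0.20 to 0.34 for complex IV and from 0.11 to 0.26 for complex V. Wild-type medians ranged from -0.21 to 0.04 for complex I, from -0.17 to 0.0016 for complex II, from -0.01 to 0.19 for complex III, from -0.06 to 0.15 for complex IV and from 0.0015 to 0.075 for complex V. With Ndufa4 counted in complex IV, its knockout median was 0.32. Single members were followed through the alternatives if called in a main fit or on the list of subunits with known roles. The other tested members are not in this tally. Of the values followed, 2027 stayed on their side of the threshold with their direction, 56 lost a call, 37 gained one, and 143 changed sign while not called. The planned offsets by coding length were not run. In the knockout, Uqcrc2 was called with the replicate block, and 5 members of complex III with the block within genotype.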

Other observations

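Several members had RNA counts that were low beside those of a pseudogene named after them. Ndufa12 was at 8.70 and 8.23 CPM of RNA in treated and 8.72 and 7.20 CPM in untreated wild-type cells, while the row of its pseudogene Ndufa12-ps was at 87.8 and 81.3 CPM in treated and 88.9 and 83.7 CPM in untreated cells. Ndufs5 was at 4.14 and 4.26 CPM in treated and 3.74 and 3.92 CPM in untreated cells, with Ndufs5-ps at 27.4 and 27.6 CPM in treated and 29.6 and 26.7 CPM in untreated cells. Cox5b, a zinc-binding subunit of complex IV, was at 40.4 and 42.8 CPM in treated and 44.4 and 42.5 CPM in untreated cells, with Cox5b-ps at 52.6 and 60.0 CPM in treated and 59.0 and 55.6 CPM in untreated cells.

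Ndufb8, a supernumerary subunit of complex I, had 108 and 110 CPM of RNA in treated and 120.0 and 106 CPM in untreated wild-type cells. Its footprints were at 1.59 and 1.14 CPM in treated and 1.05 and 1.12 CPM in untreated wild-type cells. The 13 mitochondrially encoded subunits, at 0 in the footprint table, summed to 7942 and 9692 CPM of RNA in treated and 8496 and 10918 CPM in untreated wild-type cells. Of them, mt-Co2 and mt-Nd6 were called lower with treatment (log2 changes of -0.54 and -0.24, adjusted p = 0.0148 and 0.0461, edgeR), 15.4% of the 13 against 0.0439% of all genes. The row of mt-Co2 held a small part of that sum, with 14.0 and 12.8 CPM in treated and 20.3 and 18.7 CPM in untreated cells. For mt-Co1, which was not called, these were 3432 and 4209 CPM and 3866 and 4871 CPM. Why the mt-Co2 row is low was not tested.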
